A study of Rattus norvegicus with 4 samples.

Results

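Collagens and the proteins that modify, fold, trim and cross-link them were compared between visceral fat of obese and of control rats. The members were taken by gene symbol from the platform annotation: every gene named Col and a digit, the prolyl 4-hydroxylase (P4ha), lysyl hydroxylase (Plod) and lysyl oxidase (Lox, Loxl) families, and Serpinh1, Pcolce, Sparc and Bmp1. The rule matched 40 genes, of which 36 were kept because at least 2 of the 4 arrays exceeded a signal of 20.8, out of 9012 genes of the whole series that met the same condition. They were 8 fibrillar collagens, 7 basement membrane collagens, 10 other collagens and 11 processing genes, each represented by its probe set with the highest mean signal. The tissue came from male Wistar rats aged 130 days, with 2 obese and 2 control samples, each on its own single-colour oligonucleotide array. The labels give no diet, genotype or treatment for either group, nor the origin of the obesity, and leave it unsaid whether each RNA came from a single animal or from pooled ones. The spread behind every p-value is that between these samples and may be technical in part or whole, and the number of arrays limits the precision of every value.

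Collagens are secreted trimers whose chains wind around each other in long glycine-rich repeats. Fibrillar collagens (types I, II, III, V, XI and XXVII here) pack into the banded fibres that give connective tissue its strength, type IV forms the sheet-like net of basement membranes, which wrap each adipocyte and vessel, and type VI forms beaded filaments at the adipocyte surface. Newly made chains are hydroxylated on proline and lysine in the endoplasmic reticulum, guarded by the chaperone encoded by Serpinh1, trimmed by proteinases such as that encoded by Bmp1, and finally cross-linked by lysyl oxidases.

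Upstream sequences are shown for 4 sets of members that the values below turn on: a type I chain, a type VI chain, the only kept member under the threshold on both obese arrays, and the pair of type IV chains whose promoters lie head to head. The windows are RefSeq's on rat build GRCr8, which held 1 for 32 of the 40 members and none for Col1a1, Col2a1, Col3a1, Col6a2, Col12a1, Col14a1, Bmp1 and Lox. Each is written 5′ to 3′ on the strand named, and capitals mark a match, on either strand, to 1 of 3 short promoter motifs. The first is TATAAA, which positions the start of transcription in some promoters. Another is CCAAT, bound by the factor NF-Y. The last is GGGCGG, bound by Sp1 and its relatives. The printed bases of Col6a1 and Col9a2 hold none of these. Col1a2 is shown at chr4:33518307-33518416 (plus strand, from 250 to 141 bases before the annotated start), Col6a1 at chr20:11905570-11905689 and Col9a2 at chr5:139892678-139892797 (both plus strand, the last 120 bases before the start). The 76 bases between the annotated starts of Col4a1 and Col4a2, chr16:84885521-84885596, are written on the plus strand, along which Col4a1 is transcribed, while Col4a2 runs the other way.
Col1a2: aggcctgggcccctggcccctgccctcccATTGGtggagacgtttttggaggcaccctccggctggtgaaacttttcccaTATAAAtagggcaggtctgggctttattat
Col6a1: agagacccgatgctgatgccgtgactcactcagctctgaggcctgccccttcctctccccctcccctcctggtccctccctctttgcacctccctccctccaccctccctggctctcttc
Col9a2: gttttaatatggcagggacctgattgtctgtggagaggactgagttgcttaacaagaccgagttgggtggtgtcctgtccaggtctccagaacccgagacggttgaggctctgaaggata
Col4a1 and Col4a2: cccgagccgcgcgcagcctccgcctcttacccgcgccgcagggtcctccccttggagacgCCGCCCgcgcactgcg

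Over whole windows of 300 bases (250 before and 50 after the start), TATAAA was found on either strand in 2 of the 32 member windows, 6.25%, against 14.3% of 27457 genes with a window (the first listed for each gene). CCAAT was in 6 member windows, 18.8%, against 37.7% of all, and GGGCGG in 19, 59.4%, against 34.9% of all. Among the 7 basement membrane collagens, 5 windows held GGGCGG and 0 held TATAAA. Those of Col4a1 and Col4a2 are among the 5 and the 19, and both hold the match printed above, which is thus counted for each gene. Among the 8 windows of members whose obese arrays both lay below both control arrays, 2 held GGGCGG and 2 held TATAAA, those of Col1a2 and Col10a1. These matches describe letters and were not tested as sites.

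No member passed the test for a difference between obese and control tissue. The adjusted p from limma was under 0.05 for 0 of 12929 probe sets (0.0% called). For the members other than Col9a2, described below, it ran between 0.483 and 0.985. At an unadjusted p under 0.05 there were 9 members, all lower in obese tissue, which is 25.0% of the 36, where 5.23% of all tested probe sets were lower and 3.07% higher at that level (5.26% and 3.33% with 1 probe set per gene). Both obese arrays lay below both control arrays for 14 members, which compares with 24.4% of all tested probe sets and 24.0% with 1 probe set per gene. They lay above both for 2 members, which compares with 15.6% and 16.4%. After centring every array on its median these became 11 and 4 members, and 16.9% and 21.8% of all probe sets. Of the 36 members, 35 exceeded the threshold of 20.8 on all 4 arrays. Col9a2 was kept through its control arrays alone, so that it had to differ. It is among the 9 and the 14 above, and 13 members were separated downwards without it.

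Lower signals lay mostly among fibrillar and other collagens. Of 8 fibrillar collagens, 5 were lower on both obese arrays than on both controls and 0 higher, and their median log2 difference was -0.29, against -0.04 over all tested probe sets. That median was -0.18 without obese array 1 and also without control array 2. Of 7 basement membrane collagens, 0 were separated in either direction, with a median of 0.11, and with the type IV chains alone the median was -0.02. Of 10 other collagens, 6 were separated downwards and 1 upwards, with a median of -0.40. The 6 include Col9a2, which had to differ. With only probe sets above the floor on all 4 arrays, which drops Col9a2, the median was -0.36. Of 11 processing genes, 3 were separated downwards and 1 upwards, with a median of 0.03 that was -0.018 with quantile normalization and -0.029 with cyclic loess. Over all tested probe sets, 24.4% were separated downwards and 15.6% upwards. The shares downwards were 62.5% for fibrillar, 0.0% for basement membrane and 60.0% for other collagens. For processing genes they were 27.3% downwards and 9.1% upwards, with the former near the share of all probe sets. The difference between classes was not tested, because genes are not replicates of a condition. The plot of every member by array shows these values.

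**Figure D1:**
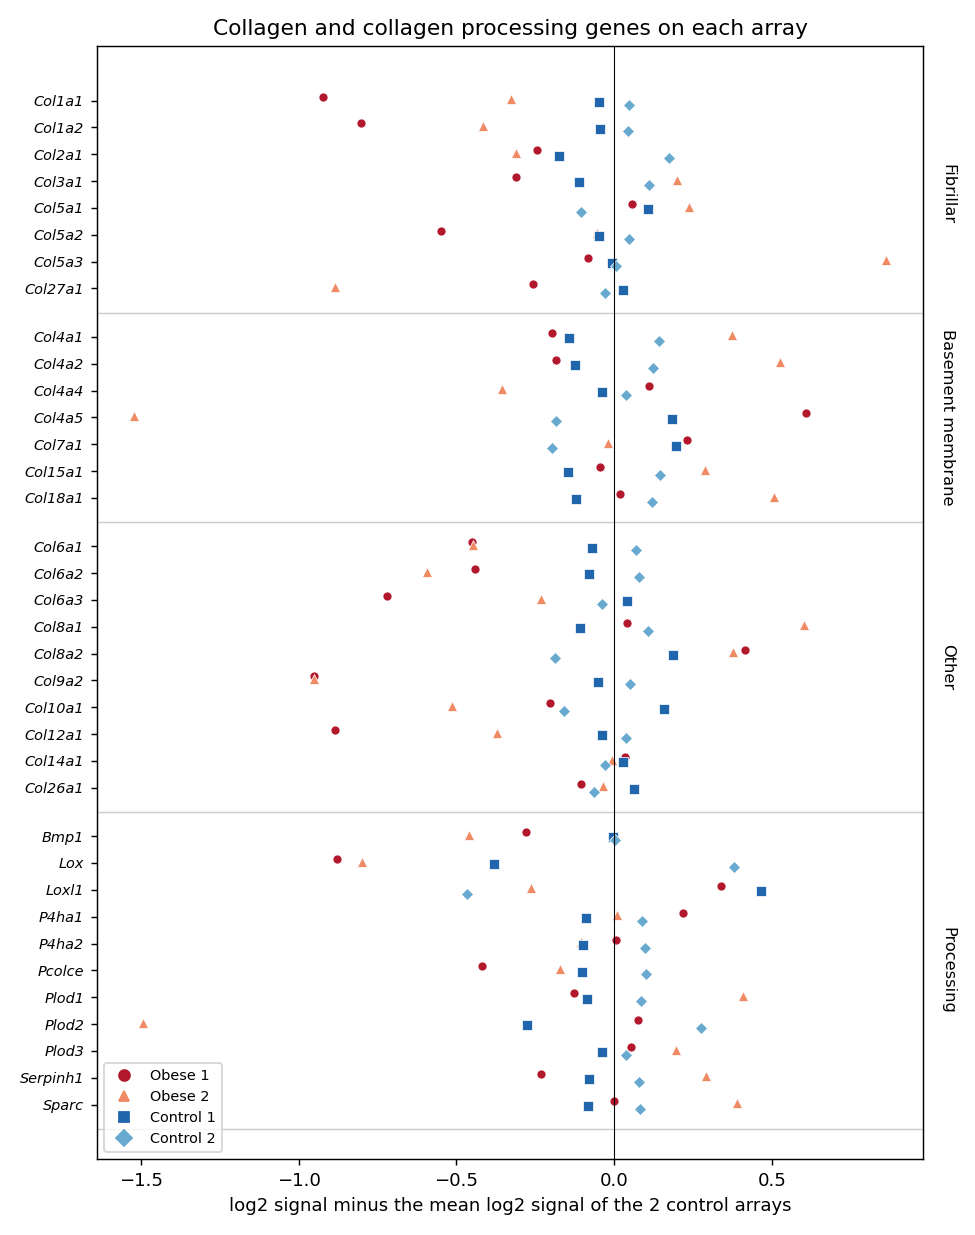
Log2 signal of each of the 36 members on each of the 4 arrays (x axis), minus the mean of the 2 control arrays, grouped by class, with obese arrays in reds and control arrays in blues. The type I chains (Col1a1, Col1a2), the 3 type VI chains, Col12a1 and Lox have both obese points left of both control points, while Col4a5 and Plod2 have obese array 2 far to the left and obese array 1 at or above the control mean.

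Type I collagen is the main component of thick fibres, and both its chains gave lower signals on both obese arrays. Col1a1, its alpha 1 chain, had signals of 1903.8 and 2879.3 on obese arrays 1 and 2, against 3490.3 and 3730.8 on control arrays 1 and 2. Both obese arrays were below both controls, and obese array 1 was the lowest. The log2 difference was -0.62 ± 0.23 (SE; 0.649-fold; limma adjusted p = 0.574), and it was -0.33 without obese array 1 and -0.92 without obese array 2. A further probe set of Col1a1 read 715.7 and 1325.4 in obese tissue, against 1748.2 and 1923.4 in control tissue, for a difference of -0.91 ± 0.29 on the log2 scale.

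Col1a2, the alpha 2 chain that joins the trimer, had signals of 1618.4 and 2118.8 in obese tissue, against 2736.5 and 2912.4 in control tissue. Its log2 difference was -0.61 ± 0.18 (0.656-fold; limma adjusted p = 0.515). The other probe set of Col1a2 gave 1044.1 and 1111.4 on the obese arrays, against 1748.9 and 1937.6 on the control arrays, and -0.77 ± 0.14. All 4 probe sets of type I collagen thus had both obese arrays below both control arrays, and in each of them obese array 1 was the lowest of the 4.

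Type III collagen, encoded by Col3a1 and found in the fine reticular fibres that run with type I, overlapped between the groups. Its signals were 2574.9 and 3667.8 in obese tissue, against 2957.4 and 3446.5 in control tissue, with a log2 difference of -0.06 and a 95% interval of -0.60 to 0.49. The obese arrays held both the lowest and the highest value. The interval reaches almost to the difference of Col1a2, so type III was shown neither to differ nor to stay level.

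Type V collagen starts and limits the growth of type I fibrils, and its 3 chains had different patterns. Col5a2 had signals of 1085.6 and 1527.8 in obese tissue, against 1534.4 and 1639.8 in control tissue, and its log2 difference was -0.30 ± 0.19 (limma adjusted p = 0.728). Obese array 2 nearly touched control array 1. Without obese array 1 that difference was -0.05. The other probe set of Col5a2 overlapped (859.2 and 1132.1, against 1113.1 and 1246.5 in control tissue).

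The probe sets of Col5a1 disagreed. The brighter one gave 617.0 and 698.6 in obese tissue, against 638.1 and 550.8 in control tissue (log2 difference 0.15 ± 0.14), and the dimmer one 245.7 and 216.8, against 290.0 and 307.2 (-0.37 ± 0.14). No direction can be given for this gene. Col5a3, the third type V chain, read 1055.5 and 2029.4 in obese tissue, against 1111.7 and 1121.9 in control tissue. Obese array 2 alone was high, and without it the log2 difference of 0.39 ± 0.30 became -0.08.

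The remaining fibrillar collagens were dim. Col27a1, best known from cartilage, had signals of 48.5 and 31.4 in obese tissue, against 59.2 and 56.8 in control tissue, with a log2 difference of -0.57 ± 0.26. It was -0.26 without obese array 2, the lowest, and -0.08 with the floor raised to the 40th percentile. Col2a1, the fibrillar collagen of cartilage, gave 45.7 and 43.7 in obese tissue, against 48.0 and 61.1 in control tissue (-0.28 ± 0.21, and -0.10 without control array 2), and its other probe set did not exceed 7.2 on any array. The type XI chains were not kept: Col11a1 ran between 0.3 and 6.6 and Col11a2 between 5.2 and 16.7.

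Basement membrane collagens had overlapping groups throughout. Col4a1, which with Col4a2 makes the common type IV trimer, had signals of 1859.7 and 2758.0 in obese tissue, against 1928.2 and 2353.2 in control tissue (log2 difference 0.09, 95% interval -0.48 to 0.66). Col4a2 read 1333.9 and 2178.8 in obese tissue, against 1389.8 and 1650.9 in control tissue (0.17, interval -0.46 to 0.80). Both genes, whose starts lie 76 bases apart in the sequence above, had the same order over the arrays: obese 2 highest, then control 2, control 1 and obese 1. The other probe set of Col4a1 also had obese array 2 highest, and its log2 difference was 0.21 ± 0.24.

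Col15a1 and Col18a1 encode proteoglycan collagens of the basement membrane zone, and Col18a1 is the precursor of endostatin. Col15a1 had signals of 802.3 and 1010.1 in obese tissue, against 748.7 and 914.7 in control tissue (0.12 ± 0.18). Col18a1 had 438.9 and 614.4, against 398.3 and 470.3 in control tissue, and the log2 difference of 0.26 ± 0.20 was 0.03 with its other probe set and 0.02 without obese array 2. Obese array 2 was the highest for both. Col7a1, of the anchoring fibrils that fasten epithelia, was dim, with 50.6 and 42.5 in obese tissue, against 49.4 and 37.6 in control tissue (0.11 ± 0.23). Col4a4, a chain of specialised basement membranes such as that of the kidney glomerulus, was near the threshold at 32.2 and 23.3, against 29.0 and 30.6 in control tissue (-0.12 ± 0.23).

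Col4a5, a further type IV chain of specialised membranes, varied more between the obese arrays than any other member. Its signals were 422.8 and 96.7 on obese arrays 1 and 2, against 314.8 and 244.4 in control tissue, so that the obese arrays held both the highest and the lowest value. The log2 difference of -0.46 ± 0.64 became 0.61 without obese array 2 and -1.52 without obese array 1. Plod2, which encodes the lysyl hydroxylase acting on the ends of collagen chains, showed the same low obese array 2, with 344.5 and 116.0, against 270.0 and 395.3 in control tissue (-0.71 ± 0.50, and 0.08 without obese array 2).

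Markers of mesothelium, the epithelium that covers visceral organs and fat, shared the low obese array 2 of these 2 genes. The order of the other arrays differed between the marker sum and either gene. The summed signal of 6 mesothelial markers measured of 8 listed was 1817.9 and 428.4 on obese arrays 1 and 2, against 894.0 and 1044.0 on the control arrays. All 6 had obese array 2 lowest, among them keratin 19 (Krt19, named after its values were seen), at 405.4 and 47.8, against 114.7 and 118.5 in control tissue. The 9 smooth muscle and pericyte markers summed to 4247.0 and 1912.1, against 2081.7 and 2169.8. The part of either cell type in the values of Col4a5 and Plod2 was not tested. In bulk tissue, fewer cells of a type and less RNA per cell cannot be told apart.

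Type VI collagen gave lower signals for all 3 chains measured. Col6a1 had signals of 1398.6 and 1403.8 in obese tissue, against 1821.2 and 2007.3 in control tissue, with a log2 value of -0.45 ± 0.14 for the difference (0.733-fold; limma adjusted p = 0.522). The 2 obese arrays were nearly equal and lay well below both controls. Col6a2 had 1012.8 and 910.7 in obese tissue, against 1299.8 and 1453.4 in control tissue (-0.52 ± 0.14, 0.699-fold; limma adjusted p = 0.483). A dimmer probe set of Col6a2 gave 91.1 and 80.0, against 133.4 and 117.4 in control tissue, and -0.55 ± 0.18, so both probe sets were separated.

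Col6a3, the chain from which endotrophin is cleaved, read 862.1 and 1211.6 in obese tissue, against 1460.5 and 1382.5 in control tissue (-0.48 ± 0.19; limma adjusted p = 0.596). Here obese array 1 was the lowest, and without it the log2 difference was -0.23. Without 1 array, Col6a1 stayed between -0.52 and -0.38 and Col6a2 between -0.60 and -0.44.

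Fibril-associated collagens sit on the surface of fibres and were divided. Col12a1, which coats type I fibres, had signals of 161.8 and 231.1 in obese tissue, against 291.2 and 306.5 in control tissue (-0.63 ± 0.20, 0.647-fold; limma adjusted p = 0.522). Both obese arrays were low, obese array 1 more so, and the other probe set of Col12a1 gave -0.56 ± 0.27 with the same separation. Its log2 difference was -0.37 without obese array 1. Col14a1, its close relative, overlapped, with 779.1 and 756.8 in obese tissue, against 775.4 and 746.8 in control tissue (0.01, 95% interval -0.28 to 0.31).

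Col9a2, a chain of the type IX collagen that decorates cartilage fibrils, was kept through its control arrays alone, and its rank among the members is therefore not given. Its signals were 14.9 and 20.3 in obese tissue, both under the threshold, against 38.8 and 41.6 in control tissue. Obese tissue was thus at least 1.93-fold lower, a bound set by the floor of 20.8 (limma adjusted p = 0.402). Of the 4 cartilage markers on the array, Acan was at 47.5 and 27.3 in obese tissue, against 54.2 and 48.2 in control tissue. Hapln1 had the opposite sign, at 24.2 and 34.6, against 30.1 and 21.2 in control tissue (0.20 ± 0.28), while Comp and Cnmd were under the floor on at least 3 of 4 arrays and the partner chain Col9a1 exceeded it on 1 array only, at 20.9. Col9a1 was the member just outside the condition for being kept, and Col9a2 the one just inside.

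The network-forming type VIII collagen, found around vessels, pointed the other way. Col8a2 had signals of 199.9 and 194.9 in obese tissue, against 170.7 and 131.9 in control tissue (0.40 ± 0.17; limma adjusted p = 0.623), and was the only collagen with both obese arrays above both controls. Its difference was 0.21 without control array 2. Col8a1 had 122.2 and 180.1 in obese tissue, against 110.3 and 127.9 in control tissue, with obese array 2 alone high (0.32 ± 0.23, and 0.04 without that array). Col10a1, the network collagen of growing cartilage, was dim at 29.3 and 23.6, against 37.6 and 30.2 in control tissue (-0.36 ± 0.22), and its difference was -0.20 without obese array 2 and also without control array 1. Col26a1 had 69.8 and 73.2, against 78.4 and 71.7 in control tissue (-0.07 ± 0.18), and Col19a1 was not kept, at 3.0 to 17.9.

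**Figure D2:**
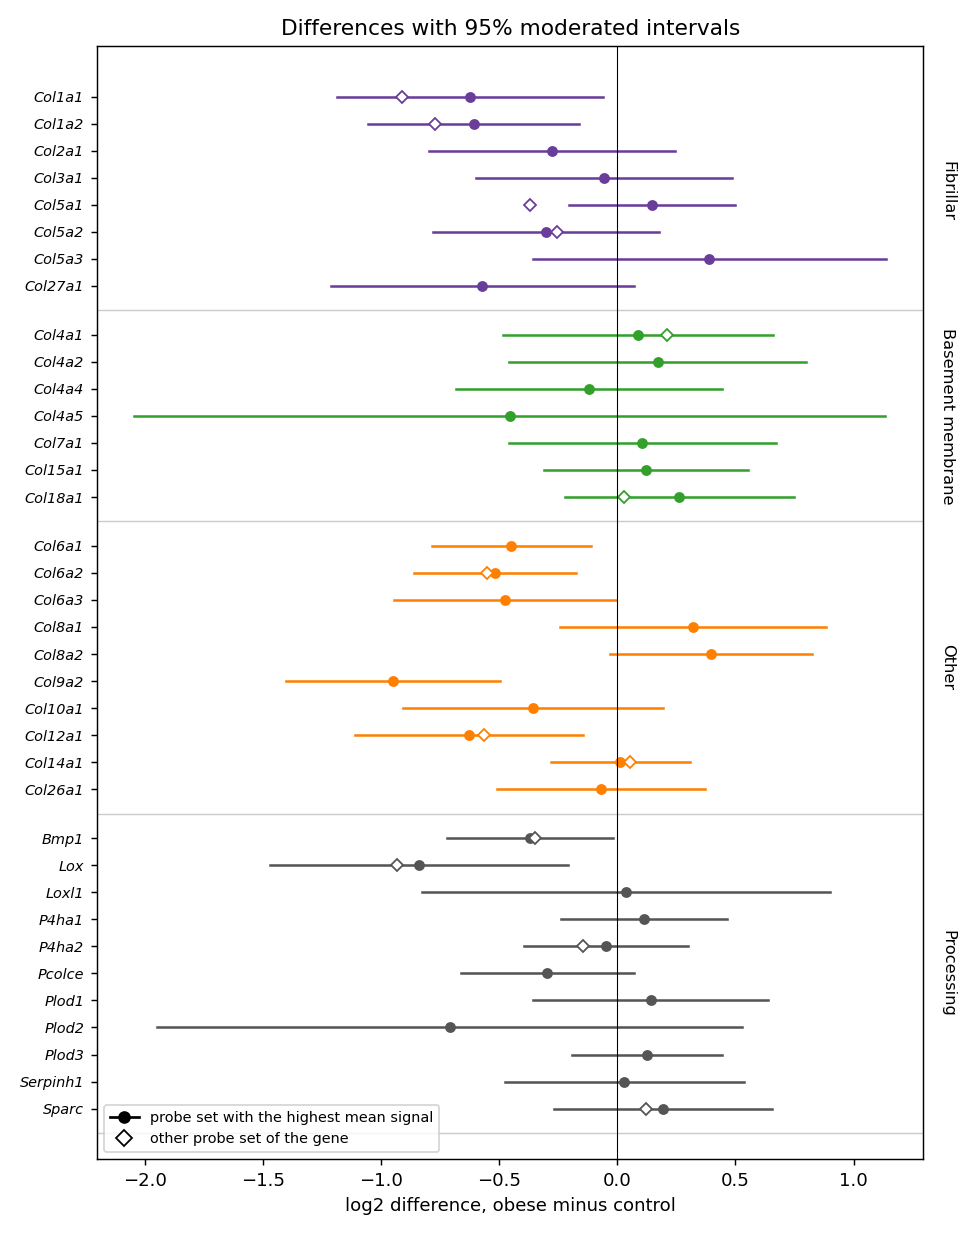
Log2 difference, obese minus control, of each of the 36 members with its 95% moderated interval (limma, 2 arrays a group), coloured by class, with open diamonds for other probe sets of the same gene. Of 13 other probe sets above the threshold, 12 had the sign of the brighter one, and Col5a1 was the exception.

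Among processing genes, lysyl oxidase stood lowest. Lox, the copper enzyme that starts cross-links between collagen and elastin chains, had signals of 176.5 and 186.8 in obese tissue, against 249.4 and 422.6 in control tissue (-0.84 ± 0.26, 0.559-fold; limma adjusted p = 0.522). The obese arrays lay close together, and the controls far apart. Without control array 2, the highest, the log2 difference was -0.46, and without control array 1 it was -1.22. The other probe set of Lox gave 74.4 and 81.7, against 112.1 and 197.3 in control tissue, and -0.93 ± 0.29. Loxl1, a relative known for its part in elastic fibres, overlapped, with 238.4 and 157.0 in obese tissue, against 260.6 and 136.4 in control tissue (0.04 ± 0.35).

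Genes for trimming of procollagen had lower signals on both obese arrays in their brightest probe sets. Bmp1, the proteinase that removes the carboxyl propeptide, had signals of 165.7 and 146.4 in obese tissue, against 200.7 and 201.8 in control tissue (-0.37 ± 0.14; limma adjusted p = 0.581). A second Bmp1 probe set overlapped between the groups (68.7 and 63.9, against 61.3 and 116.1 in control tissue). Pcolce, which enhances that cleavage, had 376.5 and 446.8, against 469.6 and 540.1 in control tissue (-0.30 ± 0.15), with -0.17 without obese array 1 and -0.20 without control array 2.

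Hydroxylases and the chaperone mostly overlapped between the groups. P4ha1 and P4ha2 encode catalytic subunits of prolyl 4-hydroxylase. P4ha1 had 406.4 and 351.2 in obese tissue, against 328.2 and 371.1 in control tissue (0.11 ± 0.14, and 0.0091 without obese array 1), and P4ha2 had 242.3 and 224.6, against 225.6 and 258.3 in control tissue (-0.05 ± 0.14). A dimmer probe set of P4ha2 was separated downwards (47.4 and 43.6, against 48.2 and 52.4 in control tissue). Of the lysyl hydroxylases, Plod1 had 330.7 and 478.7, against 340.4 and 382.7 in control tissue (0.14 ± 0.20). Plod3 had 306.1 and 338.0, against 287.6 and 302.6 in control tissue, a small separation upwards (0.12 ± 0.13; limma adjusted p = 0.830) that was 0.053 without obese array 2.

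Serpinh1, the collagen chaperone of the endoplasmic reticulum, read 1282.2 and 1839.9 in obese tissue, against 1423.6 and 1589.6 in control tissue (0.03, 95% interval -0.47 to 0.53), on a probe set whose name marks probes that may match more than 1 transcript. Sparc, a collagen-binding matricellular protein, had 2310.7 and 3027.4, against 2183.5 and 2445.2 in control tissue (0.19 ± 0.19), with obese array 2 alone standing out, and its difference was 0.0 without that array. The chaperone and Sparc thus shared the high obese array 2 seen for Col4a1, Col4a2 and Col5a3. At a nearly equal trimmed mean, the median signal was 75.0 on that array, 82.2 on obese array 1 and 83.1 and 82.8 on the controls. With quantile normalization the SE fell from 0.20 to 0.16 for Serpinh1 and from 0.19 to 0.11 for Sparc. The part of array scaling in these values was not tested. Summed adipocyte markers were at 10378.8 and 12609.5 in obese tissue, against 10478.7 and 10511.2 in control tissue, and summed Schwann cell and nerve markers at 3826.3 and 5560.0, against 3205.1 and 3219.8. Both sums were also highest on obese array 2, and their part in these values was not tested. Most of the Schwann cell and nerve sum came from S100b (2527.3 and 3269.8, against 2052.4 and 2077.7 in control tissue). Sox10, of the same list, was under the floor on every array. Endothelial markers, which mark vessels with their own basement membranes, summed to 2006.4 and 1812.9, against 2049.7 and 2062.6, and the sum was lowest on obese array 2. Single endothelial markers were divided: Vwf, Emcn, Tie1 and Egfl7 were lowest on that array, Kdr was highest there, and Pecam1 and Cldn5 lay between. The part of vessels in these values was not tested.

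Averaged over its members and set against the median of all tested probe sets on each array, the fibrillar class was 0.40 log2 units higher on obese array 2 than on obese array 1, while the control arrays differed by 0.08. Its obese-minus-control difference was -0.18, and it turned to 0.02 without obese array 1. It was -0.27 with cyclic loess, -0.12 with the floor at the 40th percentile and -0.11 with no filter. The other collagens differed by -0.21, and by -0.11 without obese array 1. With only probe sets above the floor on all 4 arrays, which drops Col9a2, their difference was -0.14, and raising the floor to the 40th percentile gave -0.13. The processing genes differed by -0.09, by -0.15 with quantile normalization and by -0.16 with cyclic loess. Leaving out control array 1 made that -0.16 and leaving out control array 2 made it -0.019. The basement membrane class differed by 0.08, with both obese arrays just above both controls, and by 0.054 without control array 1. It includes Col4a5, at 0.61 and -1.52 on obese arrays 1 and 2 relative to its control mean, and was not recomputed without that gene. The array medians taken off were 6.85 and 6.75 log2 units on obese arrays 1 and 2, and 6.86 on each control array. The basement membrane value was 0.026 with quantile normalization, 0.018 with cyclic loess and -0.022 with the type IV chains alone.

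**Figure D3:**
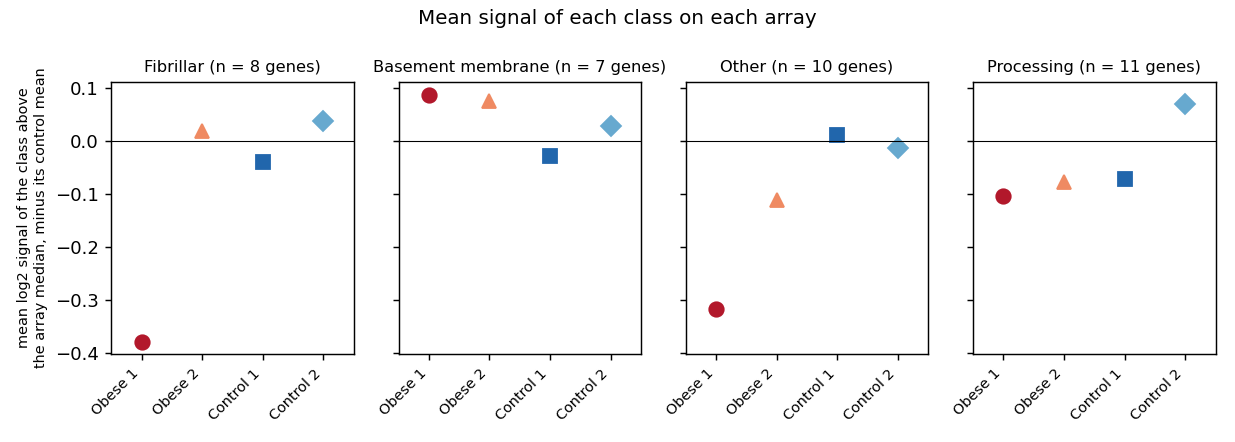
Mean log2 signal of each class above the array's median (y axis), minus the mean of the 2 control arrays, on each of the 4 arrays. The fibrillar class is low on obese array 1 only, and the other collagens are below both controls on both obese arrays.

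Ratios taken within an array do not depend on any single factor by which that array was scaled. Their pairs were chosen after the values were seen, so they are given with no test. The log2 ratio of type I (Col1a1 and Col1a2) to type IV (Col4a1 and Col4a2), relative to its control mean, was -0.67 and -0.82 on obese arrays 1 and 2, against 0.09 and -0.09 on control arrays 1 and 2. This ratio was low to a like degree on both obese arrays, although the single genes differed between them. The ratio of type I to type III was -0.55 and -0.57 in obese tissue, against 0.06 and -0.06 in control tissue.

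The ratio of type VI (Col6a1, Col6a2 and Col6a3) to type IV was -0.35 and -0.87 in obese tissue, against 0.10 and -0.10 in control tissue. Over whole classes, fibrillar to basement membrane, it was -0.47 and -0.06, against -0.01 and 0.01, so that the wider classes separated far less on obese array 2 than the type I and type IV chains did. The basement membrane mean includes Col4a5, which was at -1.52 on obese array 2 relative to its control mean. The class ratio was not recomputed without Col4a5. Without 1 array, the obese-minus-control ratio stayed between -0.83 and -0.66 for type I to type IV, between -0.63 and -0.50 for type I to type III, and between -0.87 and -0.35 for type VI to type IV. Without obese array 2 the last of these was -0.35. The ratio of Lox to type I overlapped, at -0.02 and -0.43 in obese tissue, against -0.33 and 0.33 in control tissue. A ratio shows unequal change and not which of its members changed.

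**Figure D4:**
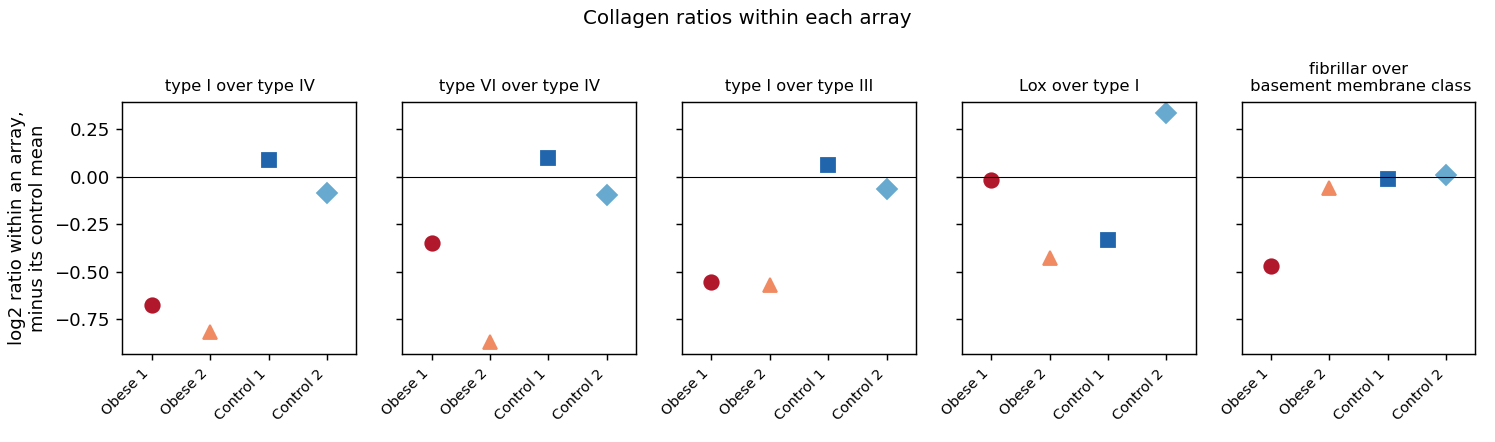
Log2 ratios within each array (y axis), minus their mean over the 2 control arrays, for type I over type IV, type VI over type IV, type I over type III, Lox over type I and the fibrillar over the basement membrane class. In the first 3 panels both obese points lie below both control points, for Lox over type I the groups overlap, and in the last panel obese array 2 lies next to the controls.

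Genes around collagen were read from 6 lists, and none of their members passed limma's test over all probe sets. Counts of separated genes are to be read against 16.4% of all genes upwards and 24.0% downwards, and with lists this short none is taken as a result about its list. In each list the genes with the largest and the smallest moderated t are named. Of 15 collagen folding and secretion genes measured, 2 (13.3%) were separated upwards and 5 (33.3%) downwards. That list also holds a degrading protease and a cross-linking enzyme, which had its smallest and largest t and are not folding genes. Ctsk, cathepsin K, a protease that degrades collagen in lysosomes, was at 127.6 and 103.8 in obese tissue, against 259.7 and 250.7 in control tissue (-1.15 ± 0.16; limma adjusted p = 0.290). Tgm2, a transglutaminase that also cross-links matrix proteins, was at 900.6 and 868.4, against 719.8 and 649.6 in control tissue (0.37 ± 0.13).

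Of 20 fibril partners measured, 5 (25.0%) were separated upwards and 7 (35.0%) downwards. Bgn, biglycan, a small proteoglycan that binds type I and type VI collagen, was at 724.6 and 631.6 in obese tissue, against 1098.1 and 1027.8 in control tissue (-0.65 ± 0.14; limma adjusted p = 0.402). Ogn, osteoglycin, of the same leucine-rich family, was at 872.7 and 760.1, against 489.8 and 492.2 in control tissue (0.73 ± 0.13; limma adjusted p = 0.402). Its difference was only 0.27 with the mean over its probe sets, which thus disagree. Of 14 basement membrane partners, 2 (14.3%) were separated upwards and 1 (7.1%) downwards, with a median of -0.01. Smoc1 had the largest t in that list (0.51 ± 0.14) and the laminin chain Lama5 the smallest (-0.25 ± 0.16, and -0.15 without obese array 2).

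Of 6 collagen receptor genes measured, 0 were separated upwards and 2 (33.3%) downwards, with Cd44 at -0.75 ± 0.16 and the fibrillar collagen receptor Ddr2 at 0.09 ± 0.15. Collagen-cleaving proteases and their inhibitors had 1 of 9 measured (11.1%) separated upwards and 3 (33.3%) downwards. Mmp9, gelatinase B, read 16.2 and 12.3 in obese tissue, both under the floor, against 40.5 and 48.5 in control tissue, at least 2.13-fold lower. It was kept through its control arrays alone, so that it had to differ, and it is 1 of the 3 separated downwards. Reck, an inhibitor of such proteases, was at 0.40 ± 0.22, and at 0.13 without control array 2. Among 15 upstream signals, 2 (13.3%) were separated upwards and 5 (33.3%) downwards. Tgfb1, the growth factor that drives collagen synthesis in fibroblasts, was at 140.1 and 103.1 in obese tissue, against 189.8 and 278.2 in control tissue (-0.94 ± 0.25; limma adjusted p = 0.471). Ccn2, a matricellular target of that factor, was at 825.8 and 522.6, against 341.0 and 412.2 in control tissue (0.81 ± 0.24; limma adjusted p = 0.512), and its difference was 0.48 without obese array 1.

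Fibroblasts and their progenitors make most fibrillar collagen in fat, and their markers were divided. Of 9 measured, 3 were separated upwards and 3 downwards (33.3% each, against 16.4% and 24.0% of all genes), and they summed to 9108.1 and 9467.4 in obese tissue, against 8993.6 and 8718.6 in control tissue. Macrophage markers had a lower obese mean for 5 of 5 measured, 4 of them separated (80.0%, against 24.0% of all genes), and summed to 3501.9 and 3343.8, against 5175.6 and 7140.3. Lox and the macrophage sum were both low on the 2 obese arrays and highest on control array 2. The part of macrophages in the values of Lox and of type I collagen was not tested. The 6 adipocyte markers measured, among them Fabp4 and Plin1, were above the floor on every array, and those of bone were above it on no more than 1 array.

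**Figure D5:**
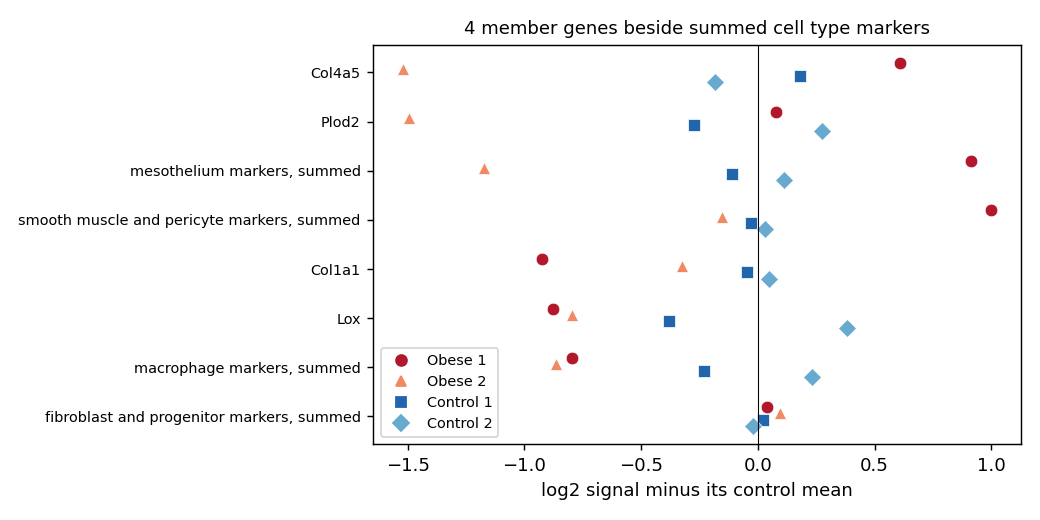
Log2 signal of 4 member genes and of summed cell type markers (x axis), minus the control mean, on the 4 arrays, with obese arrays in reds and control arrays in blues. Col4a5, Plod2 and the mesothelial sum share a low obese array 2, Lox and the macrophage sum share 2 low obese arrays, and Col1a1 is low on both obese arrays. The fibroblast sum stays near 0, although its single markers were divided in direction.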

How the data were processed

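RNA of visceral fat was measured on 4 single-colour arrays, 2 obese and 2 control, grouped by the titles in the labels. The authors deposited linear intensities, with a single value for every probe set on every array. These intensities carry a global scaling by the authors, seen in the values themselves: with 2% trimmed from either end, array means spanned only 150.026 to 150.030. Its software and method were not given in the sources used here.

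Of 15923 probe sets, 57 controls were left out. The platform annotation gave 12783 of the rest 1 symbol, 312 several and 2771 none, and only the first were named. Of these, 12748 were found by Entrez identifier in a table of assembly GRCr8, which changed 0 symbols. Values under 20.8, the 20th percentile, were set to it as a floor, and log2 was taken. The 12929 probe sets with at least 2 arrays above the floor were fitted with limma 3.58.1 in R 4.3.3 (lmFit, eBayes with a trend, 5.83 degrees of freedom), as the obese mean less the control mean, by a two-sided test whose p-values were adjusted over all of them by Benjamini-Hochberg, with a threshold of 0.05. The code was tested on simulated data. An exact permutation test of 2 against 2 arrays cannot give a two-sided p below 0.333, and none was run. "Separated" means that both arrays of one group lie above both of the other.

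The members, the classes and the lists were chosen with earlier results of these data known. All kept members are named, and of related genes those with the largest and smallest t in each list. Genes that the same rule picks for high signal are not given, since levels of different probe sets were not compared. Other settings tried were median centring, quantile normalization and cyclic loess, floors at the 10th and 40th percentile, a pseudocount, looser and stricter filters, variance models without a trend or robust, a replicate block, each array left out, averaging the probe sets of a gene, and type IV chains alone.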

Additional observations from a re-analysis of the deposited data

How the results depend on the processing

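The number of probe sets called over the whole table was 0, and became 3 with a pseudocount in place of the floor, 6 with no filter on low signal, and 1 each with eBayes without a trend and with robust eBayes. No member was called under the other alternatives run, while the calls of single members were not read out under the 2 variance models. Deviations of same-numbered arrays correlated with r = 0.0482 over the probe sets, and whether the replicate numbers pair the samples was not settled. The replicate block gave 0 calls. Its medians had to equal the main ones, since both replicate numbers occur in both groups. Of 354 values of single members with all arrays, 344 kept their direction. Many of them could not turn: the replicate block and the looser and stricter filters reuse the same log2 values. With the floor at the 10th percentile only Col9a2 could move. The 10 that turned belonged to 6 genes: Col14a1 (-0.048 with quantile normalization, -0.026 with cyclic loess), Col26a1 (0.010 with median centring, 0.0071 with quantile normalization, 0.010 with cyclic loess), Col3a1 and P4ha2 (0.024 and 0.030 with median centring), Serpinh1 (-0.030 with quantile normalization, -0.040 with cyclic loess) and Col5a1 (-0.11 with the mean over probe sets). The cause was not tested.

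The fibrillar median of -0.29 was -0.084 with the floor at the 40th percentile, and that of the other collagens, -0.40, was -0.26 there and -0.21 with no filter. The basement membrane median was 0.18 with median centring, 0.051 with quantile normalization and -0.016 with type IV alone, and its level by array 0.026 with quantile normalization, 0.018 with cyclic loess and -0.022 with type IV alone. The processing median was 0.11 with median centring, -0.018 with quantile normalization and -0.029 with cyclic loess. Median centring also put 4 members above both controls. With 1 array left out, the medians ran between -0.40 and -0.18 for fibrillar, -0.023 and 0.29 for basement membrane, -0.41 and -0.30 for other collagens and -0.10 and 0.048 for processing genes. The levels by array ran between -0.38 and 0.020, 0.054 and 0.11, -0.32 and -0.11, and -0.16 and -0.019 in the same order of classes. Members separated upwards numbered 6 to 13 and downwards 16 to 21, where a lone array separates more easily.

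Leaving out 1 array turned 22 of 144 member values, of 14 genes. Their ranges were -0.014 to 0.040 for Col14a1, -0.045 to 0.29 for Col15a1, -0.31 to 0.20 for Col3a1, -0.20 to 0.37 for Col4a1, -0.18 to 0.52 for Col4a2, -0.35 to 0.11 for Col4a4, -1.52 to 0.61 for Col4a5, -0.081 to 0.86 for Col5a3, -0.091 to 0.30 for Col7a1, -0.43 to 0.50 for Loxl1, -0.15 to 0.048 for P4ha2, -0.13 to 0.41 for Plod1, -1.49 to 0.077 for Plod2 and -0.23 to 0.29 for Serpinh1. Among related genes, Ddr2 ran between -0.071 and 0.25. The level by array was not recomputed for the mean over probe sets. Signal over background limits Col9a2, Col10a1, Col4a4, Col7a1, Col2a1 and Col27a1, which lie near the floor.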
